A study of Rattus norvegicus with 36 samples.

Results

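The cytosolic ribosome, which makes the proteins encoded in the nucleus, consists of ribosomal RNA and a set of mostly small proteins encoded by the Rpl (large subunit) and Rps (small subunit) genes. These genes are strongly transcribed in most cells, and the liver's output of plasma proteins depends on them. Their messengers typically start with a terminal oligopyrimidine tract, a C followed by a run of C and T, through which growth signals acting on the kinase mTOR set their translation. Several members are also known for tasks outside the ribosome, and others are widely used as reference genes.

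The samples were livers of 36 male Wistar rats, each hybridised to its own Illumina bead array, with 12 arrays on each of 3 slides. Rats were vitamin A sufficient (VAS) or had been made vitamin A deficient (VAD) before surgery. They then had bile duct ligation (BDL), which blocks bile flow, or a sham operation, and were given daily intraperitoneal retinyl palmitate (VITA) or its vehicle. There were 5 rats in each ligated group and 4 in each sham group. The labels used here state no dose, age or days after surgery. Whole liver was assayed, so fewer cells of a type and less RNA per cell cannot be told apart. The labels call the samples biological replicates.

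Members were all probes whose name on the array is Rpl or Rps with a number, or Rplp0, Rplp1, Rplp2 or Rpsa, leaving out the Rps6k kinases. This took 74 of 22523 probes, for 71 of 21513 genes named on the array. Rpl26, Rps9 and Rpl36a had 2 probes each. A probe was tested if its detection p was under 0.01 on at least 4 arrays, which kept 66 members (38 of the large and 28 of the small subunit) among 9545 probes. Of these, 61 were detected on all 36 arrays. The probes of Rpl11, Rpl12, Rpl34, Rpl38, Rplp2, Rps19, Rps28 and the second probe of Rpl36a were detected on 0 arrays and have no level here. Rplp0 and the paralogs Rpl7l1, Rpl22l1, Rpl36al, Rpl39l, Rps27l, Rps4x2 and Rps4y2 had no probe under those names and were not analysed here. The name rule also took Rpl3l, the striated muscle paralog of Rpl3, and Rpl10l1, an Rpl10-like gene. Ribosomal protein genes have many near-identical processed copies in rodent genomes, and whether probes also bind their transcripts was not tested.

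Arrays had 29.2% to 38.1% of probes detected, and arrays of a group correlated at 0.944 to 0.987. All 14 hepatocyte marker probes passed the detection filter. Levels are log2 of background-corrected, quantile-normalised intensity, so 1 unit is a doubling of signal. Differences are of group means with the standard error (SE), and a probe was called changed when limma's two-sided p, adjusted over 9545 probes, was under 0.05. Precision is limited by how many arrays each group has. Member levels ran from a mean of 5.67 for Rps16 to 14.60 for Rpl41. Raw member intensities reached 19978 to 33169 on single arrays, against array maxima of 31288 to 48766; saturation was not tested. Levels of different probes are not compared.

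RefSeq (build GRCr8) gave 1 promoter window for 56 of the 71 genes, 250 bases before to 50 after the annotated start. A tract of C followed by at least 4 pyrimidines began within 3 bases of that start in 31 of 56 (55.4%), against 10.8% of the 24206 genes with 1 window. It began exactly at the start in 21 (37.5%), against 2.6%. CCGGAAG, the core bound by the factor GABPA, was in 33.9% of member windows on either strand and in 9.49% of all windows. AAGATGGC, the core bound by YY1, was in 8.93% against 3.58%, and the TATA box letters TATAAA were in 8.93% against 14.3%. These motifs were not checked for overlap with each other. A match describes the letters only. The printed windows run from 50 bases before the start to 20 from it. Rpl19, Rps21, Rpl10a, Rpl31, Rpl3 and Rps3 are shown as examples of members that differed between groups in the tests below. Rpl22 and Rpl41 are examples that passed no test of BDL against sham in vehicle rats in the fit without slide as a block. The examples were picked by hand and do not follow a ranking. Capitals mark the pyrimidine tract where one was found. The first 5 and Rpl22 have positions chr10:83519014-83519083 (Rpl19, + strand), chr3:187723988-187724057 (Rps21, +), chr20:6390483-6390552 (Rpl10a, +), chr9:49143061-49143130 (Rpl31, +), chr7:113507971-113508040 (Rpl3, - strand) and chr5:168117911-168117980 (Rpl22, +). Rps3 is at chr1:163195757-163195826 (-) and Rpl41 at chr7:1563478-1563547 (-).
Rpl19: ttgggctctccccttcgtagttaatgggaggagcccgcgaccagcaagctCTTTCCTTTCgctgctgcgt
Rps21: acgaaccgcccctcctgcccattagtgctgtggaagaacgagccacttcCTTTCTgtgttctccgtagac
Rpl10a: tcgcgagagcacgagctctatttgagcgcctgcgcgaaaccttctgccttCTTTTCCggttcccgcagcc
Rpl31: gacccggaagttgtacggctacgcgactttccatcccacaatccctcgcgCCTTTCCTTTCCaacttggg
Rpl3: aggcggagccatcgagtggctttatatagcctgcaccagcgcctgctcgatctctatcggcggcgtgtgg
Rps3: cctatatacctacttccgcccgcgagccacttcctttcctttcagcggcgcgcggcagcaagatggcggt
Rpl22: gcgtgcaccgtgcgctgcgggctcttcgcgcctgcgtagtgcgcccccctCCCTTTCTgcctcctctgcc
Rpl41: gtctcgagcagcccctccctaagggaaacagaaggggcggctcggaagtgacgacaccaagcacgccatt
Counted from the matching C nearest the annotated start, the tract is 10 bases long in Rpl19, 6 in Rps21, 7 in Rpl10a, 12 in Rpl31 and 8 in Rpl22. The search did not ask what precedes that C, and pyrimidines directly precede it in Rpl19, Rps21, Rpl10a and Rpl22. Rps3 has a pyrimidine run upstream of its annotated start, outside the searched places.

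Across the 8 groups, the ribosomal protein probes were highest in deficient ligated rats on vehicle. The median level of the 66 probes was 13.17 to 13.32 on the 5 VAD BDL vehicle arrays, which overlapped with no other group. It was 12.94 to 13.15 on the VAD BDL VITA arrays. In the remaining groups it was 12.55 to 13.03, with group means of 12.75 (VAS sham vehicle), 12.69 (VAS sham VITA), 12.83 (VAD sham vehicle), 12.78 (VAD sham VITA), 12.87 (VAS BDL vehicle) and 12.92 (VAS BDL VITA). The VAD BDL vehicle group had the highest of the 8 group means for 55 of 66 probes, against 25.8% of all probes tested. The members made up 7.15% ± 0.33 (SD, n = 5) of the summed signal in VAD BDL vehicle rats and 6.38% ± 0.89 (SD, n = 5) in VAD BDL VITA rats, against group means of 5.26% to 5.82% elsewhere. The fifth VAD BDL VITA rat, at 7.93%, lay above all VAD BDL vehicle rats (6.72% to 7.42%), and the other 4 VITA rats lay between 5.75% and 6.25%. The moderated F over the 8 groups called 43 of 66 members, where it called 48.5% of all probes. Rpl19, Rpl17, Rpsa, Rpl3, Rps21, Rpl10a and Rps3 were among those with the smallest adjusted p-values.

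**Figure D1:**
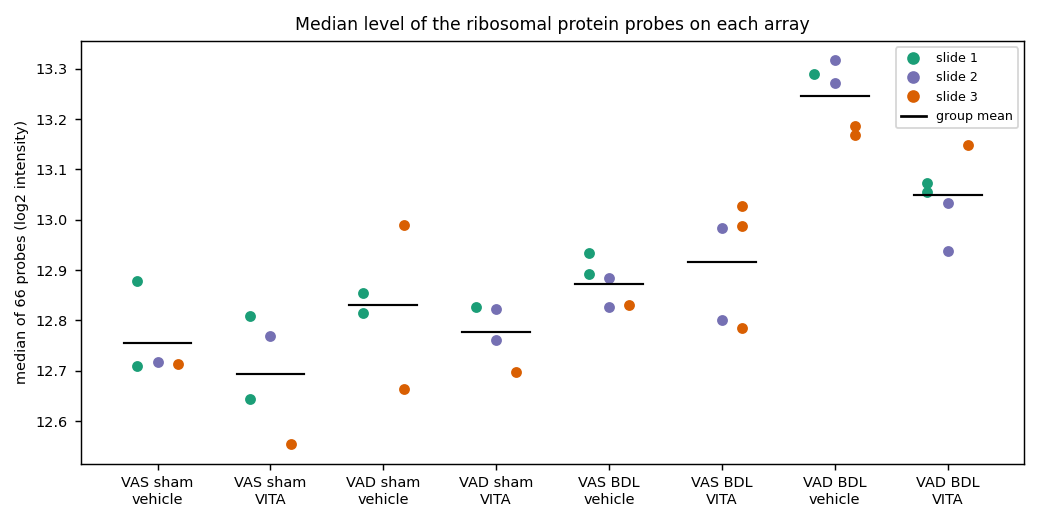
Median log2 intensity of the 66 tested ribosomal protein probes on each of the 36 arrays (points, coloured by slide), by group; the black lines are group means. The 5 VAD BDL vehicle arrays lie at 13.17 to 13.32, above all other arrays.

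**Figure D2:**
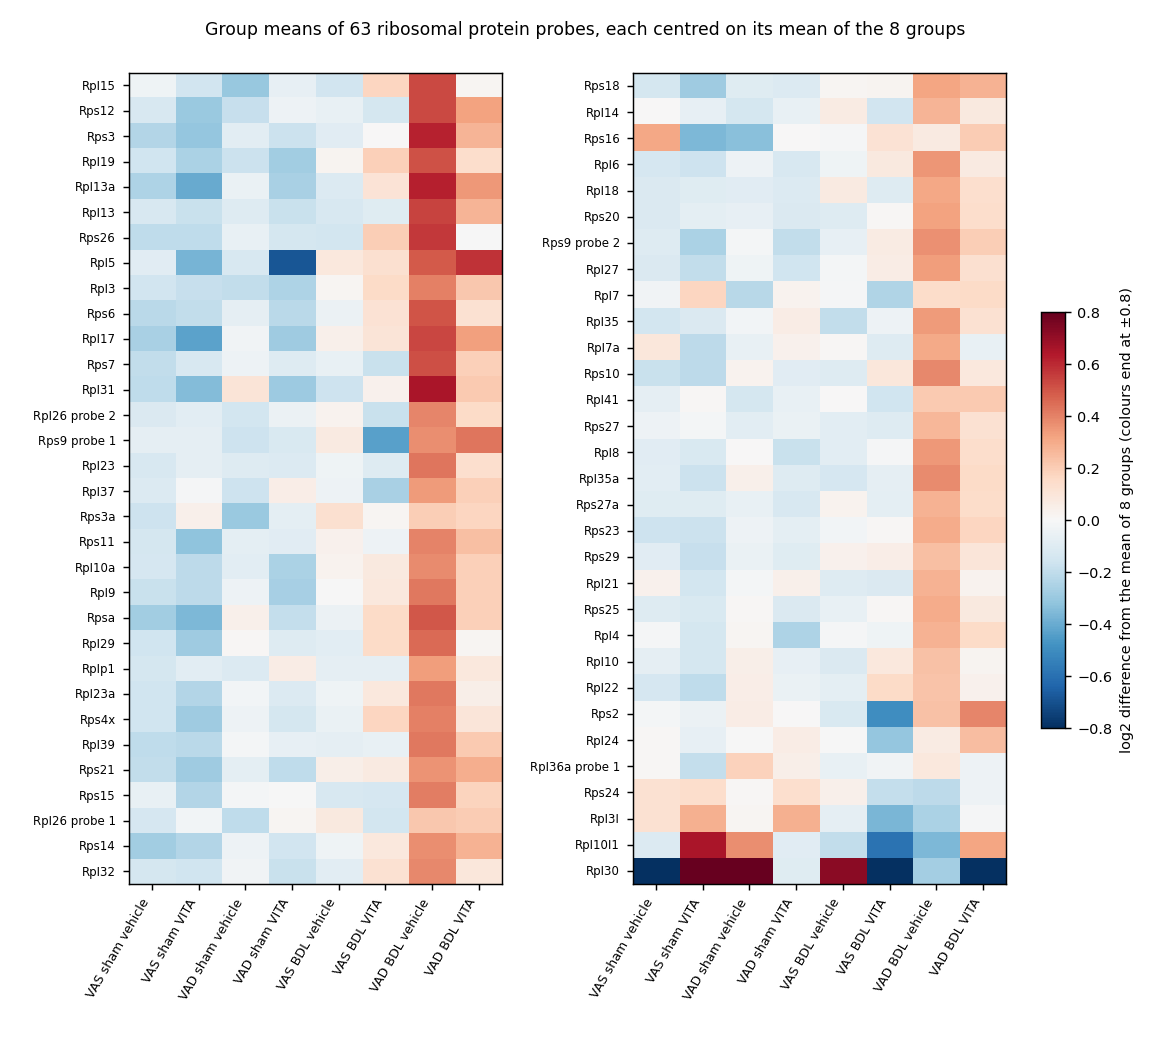
Group means of 63 member probes (rows) in the 8 groups (columns), as log2 difference from that probe's mean of the 8 groups, ordered by the difference between BDL and sham in VAD vehicle rats; values beyond 0.8 take the end colour. The VAD BDL vehicle column is the highest of the 8 for 52 of these 63 probes, while Rpl30 and Rpl10l1 at the bottom vary without that order.

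The first question was what ligation did to these genes in deficient rats. In VAD vehicle rats 44 of 66 members rose after BDL and 0 fell (66.7%, where 20.7% of all probes were called higher and 19.7% lower). The large subunit gave 22 of 38 and the small subunit 22 of 28. Their median difference was 0.41, a fold of 1.33, against -0.04 over all probes tested and 0.00 over the 444 other probes at least as bright as the members' lower quartile, a description chosen after seeing the data. The 22 brightest and the 22 dimmest members had medians of 0.41 and 0.47. The values of the 2 groups did not overlap, BDL above sham, for 27 members (16% of all probes tested). Within slide 1 the members' median difference was 0.54 and within slide 3 it was 0.30; slide 2 held no VAD sham vehicle array.

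This count depends on the scaling. Under median scaling of the arrays in place of quantile normalisation, all probes tested shifted by a median of 0.23 in this comparison. The members' median of 0.26 lay 0.04 above that. The 444 bright probes had a median of -0.16 under that scaling. Then 8 members passed the test (12.1%, against 27.1% of all probes): Rpl13, Rpl15, Rpl19, Rpl31, Rpl5, Rps12, Rps16 and Rps3. Of all called probes, 51.2% were higher in the analysis given here and 75.7% under median scaling. The authors' value table gave 46 members higher, where 20.6% of all probes were.

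In the large subunit, Rpl19 belongs to the proteins near the exit of the tunnel by which the new chain leaves the ribosome. Rpl19 stood at 12.72, 12.89, 12.86 and 12.87 in VAS sham vehicle rats and at 12.87, 12.74, 12.75 and 12.91 in VAD sham vehicle rats. It was 13.13, 13.09, 12.96, 12.85 and 13.03 in VAS BDL vehicle rats, and 13.62, 13.55, 13.52, 13.32 and 13.48 in VAD BDL vehicle rats. The last group lay above the other 3 with no overlap. Rpl19 rose by 0.68 (SE 0.10, adjusted p = 1.28e-06) after ligation in VAD rats, while in VAS rats the difference was 0.18 and passed no test. Rpl31 was 7.76, 7.57, 7.68 and 8.07 in VAD sham vehicle rats and 8.53, 8.35, 8.34, 8.06 and 8.32 in VAD BDL vehicle rats. The groups overlapped through the fourth sham rat, with a rise of 0.55 (SE 0.18, adjusted p = 0.013). Rpl17 rose by 0.56 and Rpl23a by 0.44 in VAD rats, both without overlap. Of the Rpl26 probes, the second rose by 0.54 (adjusted p = 0.0234), and the first differed by 0.42 (adjusted p = 0.107).

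Rpl3, which lies beside the site where peptide bonds form, was 13.68, 13.81, 13.64 and 13.66 in VAD sham vehicle rats and 14.40, 14.23, 14.41, 14.17 and 14.26 in VAD BDL vehicle rats. It rose by 0.60 (SE 0.10, adjusted p = 8.24e-06) with no overlap. Rpl15 rose by 0.83 (SE 0.24, adjusted p = 0.00604), the biggest difference among the called members, from levels near background. It was detected on 32 of 36 arrays. Rpl13a, which in human cells leaves the ribosome to silence inflammatory messengers, rose by 0.68 (SE 0.19). Rpl13 rose by 0.65. Rpl5, which with Rpl11 binds the small RNA of the large subunit and can restrain the p53 inhibitor Mdm2, rose by 0.62 (SE 0.20, adjusted p = 0.0119). Rpl23, another Mdm2 binder, rose by 0.53. Rplp1, an acidic protein of the stalk that recruits elongation factors, was 12.74, 12.89, 12.66 and 12.85 in sham and 13.23, 13.44, 13.39, 13.07 and 13.02 in ligated VAD vehicle rats, a rise of 0.44 (SE 0.13, adjusted p = 0.00676). Rpl4 at 0.27, Rpl10 at 0.19, Rpl22 at 0.18 and Rpl41 at 0.35 did not pass.

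In the small subunit, Rps3 at the channel where messenger RNA enters was 12.12, 11.99, 11.67 and 12.34 in VAD sham vehicle rats and 12.84, 12.89, 12.86, 12.59 and 12.45 after ligation. Ligated rats all lay above sham, with a rise of 0.69 (SE 0.14, adjusted p = 0.000203). Rpsa, also known as the laminin receptor precursor, was 13.41, 13.44, 13.58 and 13.79 in sham and between 13.90 and 14.10 in all 5 ligated VAD vehicle rats. It rose by 0.45 (SE 0.11, adjusted p = 0.000824), again with no overlap. Rps12 rose by 0.71 and Rps26 by 0.62. Rps6, whose protein when phosphorylated by the S6 kinases is the classic readout of growth signalling in liver, rose by 0.57 (SE 0.16, adjusted p = 0.0053). Phosphorylation was not measured here. Rps4x rose by 0.44, Rps14 by 0.41 and Rps20 by 0.39. Rps27a, whose product is made fused to ubiquitin, differed by 0.34 (adjusted p = 0.0648), and Rps2 by 0.17, without passing.

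Members with a promoter window were split by the tract as a description. Of 30 tested probes with a tract within 3 bases of the start, 23 rose in this comparison, with a median of 0.44. Of 21 without one, 9 rose, with a median of 0.40.

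In sufficient rats on vehicle, ligation left 0 of 66 members past the test, where limma called 17.3% of all probes. The unadjusted p was under 0.05 for 3 members (4.55%, against 28.5% of all probes), and the authors' value table gave 2. The median difference was 0.08, against -0.01 over all probes. Under median scaling the sign relative to all probes turned, with a members' median of 0.02 where all probes had 0.15. The 444 bright probes had -0.07 under that scaling and 0.04 under quantile normalisation. The higher share of all calls went from 60.4% to 82% under median scaling. The biggest differences were 1.51 for Rpl30 (adjusted p = 0.325), -0.32 for Rps16 and 0.30 for Rpl17.

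**Figure D3:**
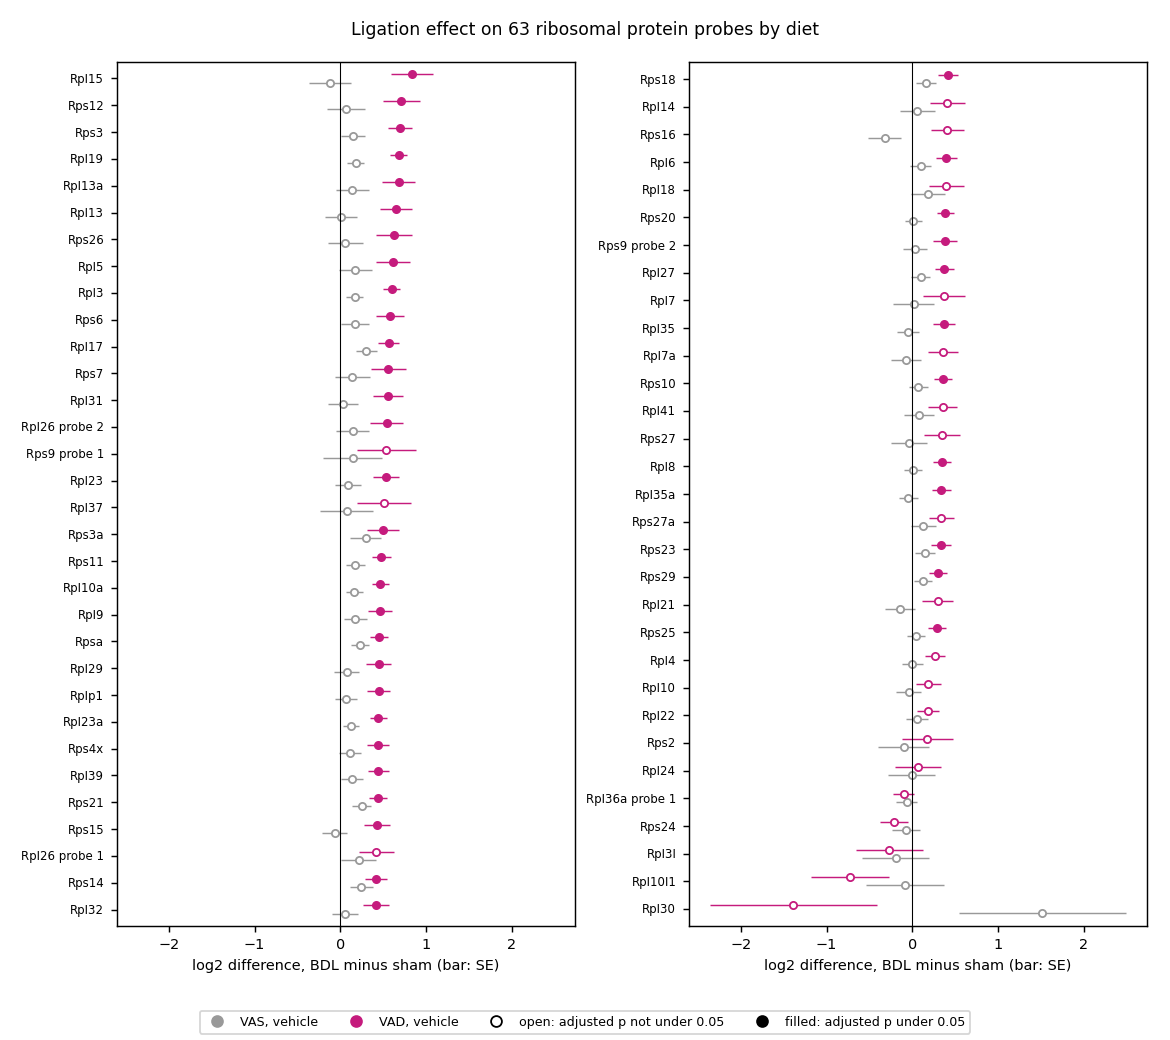
Log2 difference between BDL and sham vehicle rats for 63 member probes, with the SE as a bar, in VAS rats (grey) and VAD rats (magenta); filled points have an adjusted p under 0.05. In VAD rats 41 of the 63 are filled, all to the right of 0, and in VAS rats 0 are.

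The difference between those ligation effects was tested as an interaction of diet and ligation in vehicle rats. It was above 0 for 61 of 66 members, with a median of 0.33 against -0.01 over all probes, of which 49.4% were above 0. Only Rpl19 (0.50, SE 0.14, adjusted p = 0.0217) and Rpl3 (0.43, SE 0.14, adjusted p = 0.0496) passed, which is 3.03% of members against 4.3% of all probes called higher. At an unadjusted p under 0.05 there were 19 members (28.8%), against 20.5% of all probes. With slide as a block 10 members passed (15.2%, against 6.11% of all probes), among them also Rpl13, Rpl15, Rpl23, the second Rpl26 probe, Rps26 and Rps6. Under median scaling 0 passed, where 3.75% of all probes were called higher.

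The next comparison set deficient against sufficient ligated rats on vehicle. Of 66 members, 41 were higher in VAD rats and 0 lower (62.1%, where 14.2% of all probes were called higher and 12.1% lower), 21 of the large and 20 of the small subunit. The median was 0.39, a fold of 1.31, against -0.04 over all probes and -0.05 over the 444 bright ones. Both this and the VAD ligation comparison contain the same VAD BDL vehicle arrays. The groups did not overlap for 31 members (11.1% of all probes). The within-slide medians were 0.45, 0.47 and 0.35 on slides 1, 2 and 3. Under median scaling the members' median was 0.31, against 0.01 over all probes and -0.15 over the 444 bright ones. Then 8 members passed (12.1%, against 11.9% of all probes), among them Rpl13, Rpl15, Rpl19, Rpl31, Rpl39 and Rps3.

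Rpl31 was 7.58, 7.49, 7.68, 7.19 and 7.55 in VAS BDL vehicle rats and 8.53, 8.35, 8.34, 8.06 and 8.32 in VAD BDL vehicle rats. All sufficient rats lay below the deficient ones, and Rpl31 was 0.82 higher in VAD (SE 0.17, adjusted p = 0.000284). Rps26, at the channel where messenger RNA leaves, was 12.49, 12.45, 12.51, 12.49 and 12.97 in VAS and 13.07, 12.93, 13.12, 13.71 and 13.65 in VAD rats. Its groups overlapped through the fifth VAS rat, and it was 0.71 higher in VAD (SE 0.20, adjusted p = 0.00593). Rpl13a was higher by 0.73, Rps3 by 0.70, Rpl15 by 0.68, Rpl13 by 0.67 and Rps12 by 0.59. Rpsa, at 13.45, 13.40, 13.46, 13.48 and 13.55 in VAS BDL vehicle rats, was 0.54 higher in VAD (SE 0.10, adjusted p = 8.22e-05), and Rpl3 was 0.39 higher. In sham rats on vehicle the diets did not separate: 0 members passed limma's test (1.06% of all probes did), 2 had an unadjusted p under 0.05 (11.2% of all probes), and the median was 0.08.

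Retinyl palmitate was compared with vehicle in each setting. In VAD BDL rats 7 of 66 members were lower with VITA and 0 higher (10.6%, close to the 9.24% of all probes called lower; 7.68% were called higher). The members' median was -0.20 against 0.01 over all probes, and 57 differences were below 0 (86.4%), while 50.9% of all probes were above 0. Among the 7 were Rps26, Rpl29, Rpl23a, Rpl19, Rpsa and Rps10. Over all 66 members, 6 had no overlap between the groups, VITA lower, where 6.06% of all probes had none. These 6 were all among the 7 called, and Rps26 did overlap. Rpl23a, a docking point for factors at the tunnel exit, was 14.82, 14.64, 14.73, 14.66 and 14.67 with vehicle and 14.40, 14.37, 14.28, 14.40 and 14.21 with VITA (difference -0.38, adjusted p = 0.00353). Rpl29 was 13.87, 13.82, 13.84, 14.08 and 14.16 with vehicle and 13.61, 13.51, 13.45, 13.44 and 13.59 with VITA (difference -0.44, adjusted p = 0.0209). Rps26 had the biggest difference of the 7, -0.57 (SE 0.20, adjusted p = 0.043), with overlapping groups.

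This comparison moved with slide. Members' median differences were -0.32 on slide 1, -0.34 on slide 2 and 0.01 on slide 3, where 1 VITA array stood against 2 vehicle arrays. That array, the fifth VITA rat, was the highest of its group for Rpl13a (12.79, against 11.21 to 11.56) and for Rpl22 (13.51, against 12.93 to 13.06). Without it 17 members passed, and without the fourth VITA rat 4 did. With slide as a block 22 were lower (33.3%, against 11.6% of all probes), and without slide 3 there were 29. Shares of all probes without these arrays are not given, so the counts of 17, 4 and 29 were not set against them. Under median scaling 0 passed, where 816 of 9545 probes were called lower. The median was then -0.12, against -0.07 over all probes and 0.08 over the 444 bright ones. The higher share of all calls went from 45.4% to 34.8%.

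In the other settings 0 members passed limma's test between VITA and vehicle. In VAD sham rats 4 had an unadjusted p under 0.05 (11.4% of all probes had, and 1.25% were called), with a median of -0.08. Under median scaling all probes had a median of 0.12 there, and the members' median lay 0.08 below that of all probes under both scalings. In VAS BDL rats there were 2 (5.12% of all probes, 0% called), with a median of 0.04, and in VAS sham rats 2 (3.69% of all probes, 0.021% called), with a median of -0.04. The difference between the VITA effects in VAD and VAS ligated rats, a comparison added after seeing the data, was below 0 for 52 of 66 members, while 50.7% of all probes were above 0. It passed for 9 (13.6%, against 7.57% of all probes called lower), among them Rps26 (-0.91, SE 0.28, adjusted p = 0.025), Rpl29 (-0.68), Rpl19 (-0.54), Rps4x (-0.53), Rpl23a, Rps10 and Rpsa (-0.50 each). Without the fifth VAD BDL VITA rat 19 passed. Under median scaling 1 was lower, where 655 of 9545 probes were. VAD BDL rats given VITA were also set against VAS BDL vehicle rats, again added later. Here 0 members passed limma's test (0.325% of all probes did) and 19 had an unadjusted p under 0.05 (28.8%, against 11.6%), while 63 differences were above 0 (48.3% of all probes were), with a median of 0.19.

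Among rats given VITA, ligation was compared within each diet. In VAS rats 15 members were higher and 2 lower after BDL (22.7% and 3.03%, against 14.3% and 10.8% of all probes), with a median of 0.17. Without the third VAS BDL VITA rat 8 passed. Under median scaling 3 were higher and 1 lower, where 16.3% of all probes were higher. The members' median was then 0.14, 0.01 below that of all probes, and the 444 bright probes had -0.03. The ligated group had 0 arrays on slide 1 and 3 on slide 3, and its sham group 2 and 1. With slide as a block 17 members were higher and 0 lower, of which 12 were among those called without it. Within slides 2 and 3 the medians were 0.15 and 0.29. Rpl17 rose by 0.53, Rpl13a by 0.51 and Rpsa by 0.51 (adjusted p = 0.000481); of these, Rpl13a did not pass with the block. In VAD rats 18 members rose and 0 fell (27.3%, where 13.3% of all probes were called higher and 10.9% lower). Under median scaling 2 rose, where 11.6% of all probes did. Under quantile normalisation the members' median was 0.25. Rpl5 rose by 1.26 (SE 0.20, adjusted p = 1.1e-05), from 6.13, 5.56, 5.60 and 4.86 in sham, where it was detected in 2 of 4 rats, to 6.99, 6.84, 6.91, 6.65 and 6.59. The size of this rise rests in part on sham values not above background. Rpl17 rose by 0.62 and Rpl13a by 0.61. Between the diets, 0 members passed among VITA rats with BDL (0.0314% of all probes; 14 members and 12.4% of all probes at an unadjusted p under 0.05) and 0 among those with sham (0% of all probes; 0 members and 3.7% of all probes at an unadjusted p under 0.05).

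Some members departed from the rest. Rpl30, which controls the splicing of its own messenger in yeast, fell into 2 ranges. It lay between 7.54 and 9.94 on 16 arrays and between 11.71 and 13.09 on 20, and the gap of 1.77 between them was the widest of any member; the next was 0.70 for Rpl5. Both ranges occurred in 6 groups, as in VAS BDL VITA rats at 9.38, 12.31, 7.62, 7.54 and 11.91. Only VAS sham VITA and VAD sham vehicle rats were all in the upper range. Its difference of -2.70 between VAS BDL VITA and VAS sham VITA rats (SE 0.97, adjusted p = 0.0394) rests on that split. Rpl10l1 was lower there by -1.24 (SE 0.45, adjusted p = 0.0426). Neither passed with slide as a block. The 8 group means spanned least, 0.35 to 0.38, for Rps24, Rpl41, Rps27, Rpl10 and the first Rpl36a probe, though all 5 differed by slide, with Rps27 at -0.60 and Rpl10 at 0.31 on slide 3 relative to slide 1. Rpl41, the smallest ribosomal protein, was 14.60, 14.77, 14.15 and 14.28 in VAD sham vehicle rats and 15.02, 14.87, 15.10, 14.60 and 14.41 in VAD BDL vehicle rats. The last 2 values of each group are from slide 3, where Rpl41 stood at -0.49 relative to slide 1. Rpl3l had levels near background (mean 5.97, detected on 27 arrays) and was called in 0 of the 15 comparisons between groups. Rps16, detected on 23 arrays and on 0 of 4 in VAS sham VITA rats, has only a bound in that group.

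**Figure D4:**
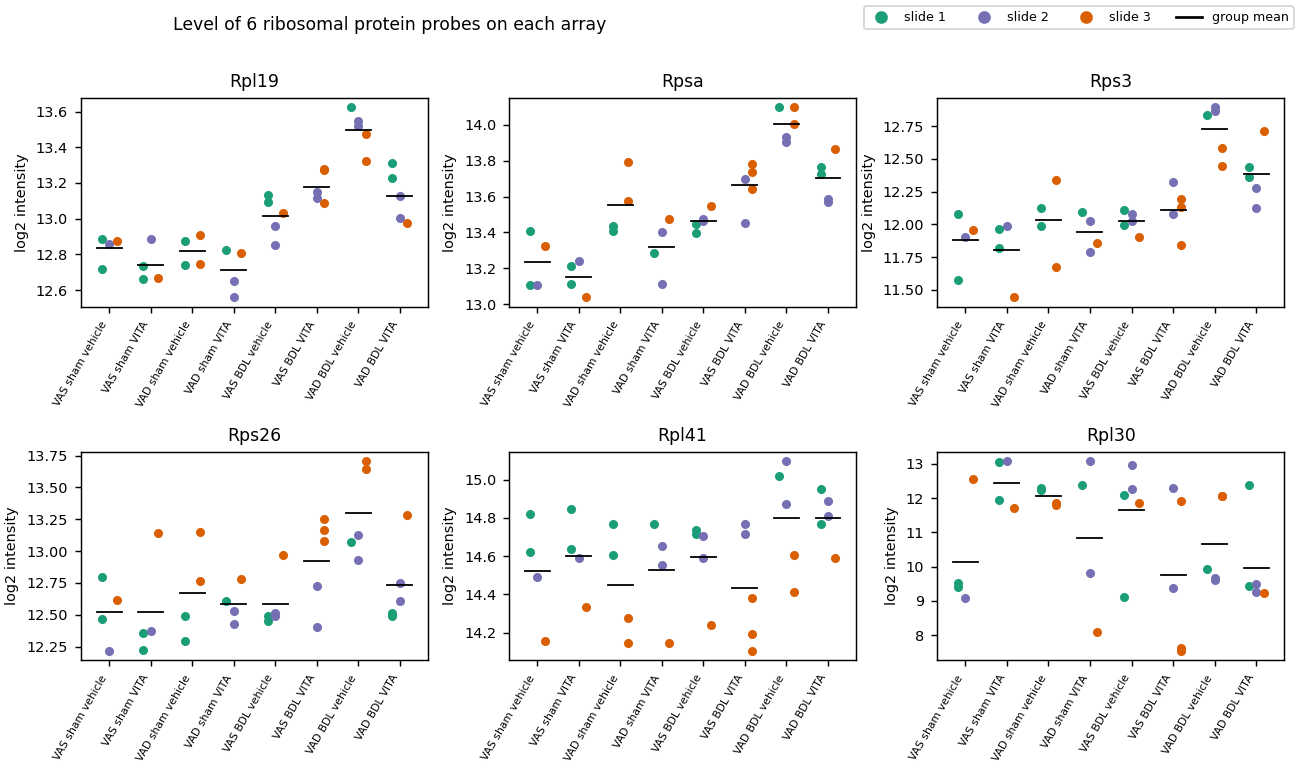
Log2 intensity of 6 member probes on each of the 36 arrays by group, coloured by slide, with group means as black lines. Rpl19, Rpsa and Rps3 are highest in VAD BDL vehicle rats, Rps26 is higher and Rpl41 lower on slide 3, and Rpl30 lies in 2 ranges with 16 arrays below 9.95 and 20 above 11.7.

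Slide itself moved single members. Beside the 8 groups, an F over the 3 slides, added after seeing the data, called 38 of 66 members, where it called 30.1% of all probes. Slide 3 stood apart: the median absolute difference from slide 1 was 0.24 for slide 3 and 0.06 for slide 2. Of the 38, 26 were lower on slide 3 than on slide 1, led by the first Rps9 probe (-1.01), Rpl37 (-0.91) and the paralog Rpl3l (-0.83), and 12 were higher, among them Rps26 (0.52) and Rpl15 (0.38). The second Rps9 probe was 0.14 higher there. In the VAD ligation comparison both Rps9 probes went the same way. The second rose by 0.38 (adjusted p = 0.026), and the first differed by 0.54 without passing (SE 0.35, adjusted p = 0.223). With slide as a block, 55 members rose after ligation in VAD vehicle rats (83.3%, against 23% of all probes), the 44 above among them. In VAD against VAS BDL vehicle rats 55 were higher (83.3%, against 16.4% of all probes), among them the 41. Without the block these shares of all probes were 20.7% and 14.2%.

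Other translation genes were described in the same way, with values under quantile normalisation. Under median scaling all probes tested shifted by a median of 0.23 for ligation in VAD vehicle rats, and list values under it are not given. Mitochondrial ribosomal proteins, which build the separate ribosome of mitochondria, had 61 of 65 probes tested. In VAD vehicle rats ligation lowered 27 (44.3%, against 19.7% of all probes) and raised 1, with a median of -0.35; Mrpl15 fell by 1.00 and Mrpl16 by 0.97. In VAS vehicle rats 9 fell and 0 rose, where 655 of 9545 probes fell and 999 rose. The median of the mitochondrial list there was -0.22. With VITA in VAD BDL rats 4 were higher (6.56%, near the 7.68% of all probes) and 0 lower. Factors known for terminal oligopyrimidine messengers had 8 of 17 higher (47.1%, against 20.7% of all probes) and 0 lower after ligation in VAD vehicle rats, with a median of 0.31; the nucleolar chaperone Npm1 rose by 0.83 and the poly(A) binding protein Pabpc1 by 0.67. Rack1, the scaffold on the small subunit, rose by 0.57 (adjusted p = 0.000172). The initiation factor list took every name of Eif and a digit. It therefore also holds other genes, such as Ago1, which was never detected. Of its 41 tested probes 12 rose (29.3%) and 1 fell. Of 44 biogenesis probes 7 rose (15.9%, below the share of all probes) and 3 fell. Among 20 growth control probes 2 rose and 3 fell, where 20.7% and 19.7% of all probes did. Eif4ebp1, which holds back cap-dependent initiation, rose by 0.82, and its relative Eif4ebp2 fell by 0.96. Npm1 is also on the biogenesis list, and both Eif4ebp genes are also on the initiation list. Of 18 probes for other quantitative PCR reference genes 6 rose (33.3%) and 1 fell.

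**Figure D5:**
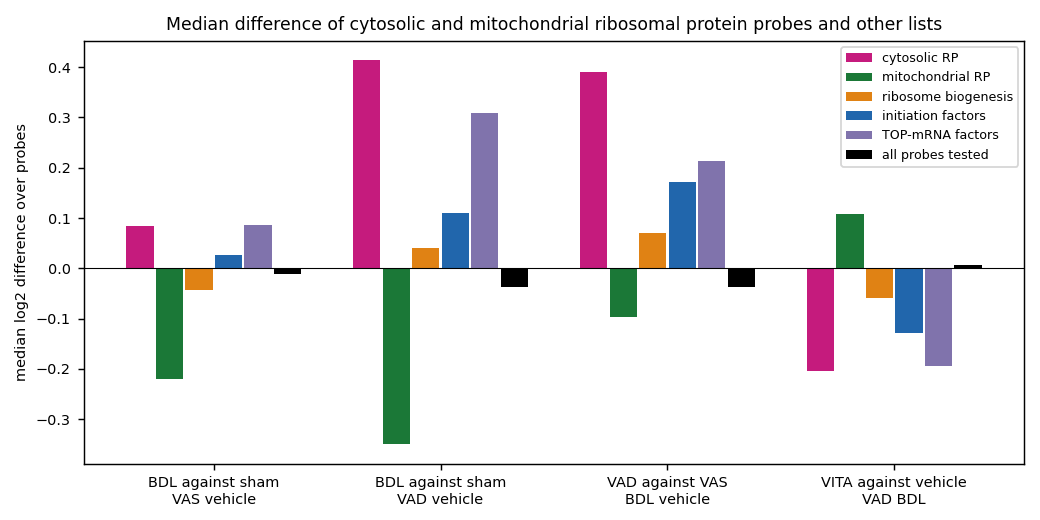
Median log2 difference over the tested probes of cytosolic ribosomal proteins, 4 other lists and all probes tested, in 4 comparisons (bars). Bars are values under quantile normalisation. Cytosolic members have 0.41 and mitochondrial ones -0.35 for BDL against sham in VAD vehicle rats. Under median scaling the cytosolic median there was 0.26, against 0.23 over all probes and -0.16 over the 444 other bright probes. Relative to all probes the cytosolic value for VAS rats changes sign under median scaling. It is then 0.02, against 0.15 over all probes and -0.07 over the 444 bright ones.

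Markers of other liver cells moved with these results. After ligation in VAD vehicle rats, 12 of 14 macrophage probes, 10 of 10 stellate and fibroblast probes, 7 of 8 tested bile duct probes and 9 of 10 proliferation probes rose, 0 of each fell, and 5 of 14 hepatocyte probes fell. Over all probes tested 20.7% rose and 19.7% fell. The sums that follow are of intensity not normalised between arrays, so the brightness of each array enters them. The summed intensity above background of the stellate and fibroblast list was 1329 to 2459 in VAD sham vehicle rats, 3003 to 4132 in VAS BDL vehicle, 12124 to 36063 in VAD BDL vehicle and 4699 to 7355 in VAD BDL VITA rats. That of the macrophage list was 5244 to 9780, 12543 to 15983, 20014 to 52896 and 11528 to 20745 in the same groups, and that of the bile duct list 1066 to 1691, 3454 to 4688, 6451 to 13810 and 3772 to 6666. The proliferation list gave 636 to 1120, 1833 to 2742, 2646 to 5838 and 1244 to 4055. The neutrophil list gave 877 to 1601, 1629 to 21635, 21779 to 40477 and 10282 to 30792, with 4 of its 9 probes never detected (Camp, Cxcr2, Ngp and S100a9). In endothelium 1 of 4 tested probes rose (Cdh5 and Stab2 never detected), and in T and NK cells 1 of 8 rose and 1 fell (Cd2 and Cd5 never detected). The B cell list had 1 tested probe, which passed no test, and Ms4a1 and Mzb1 were never detected. Among bile duct markers Sox9 was never detected. The part of these cells in the members' levels was not tested.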

How the data were processed

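The deposited non-normalized file holds mean bead intensity for 22523 probes on 36 arrays; beside each the authors deposited a detection p-value, per the file headers. The authors' value table, a deposited table of linear intensity, was an alternative; how it was normalised is not given in the labels. RNA was amplified and biotin-labelled, per the labels. Intensities were corrected and quantile normalised with neqc (offset 16, negative controls inferred from detection p) in limma 3.58.1 (R 4.3.3), giving log2 values from the deposited intensity. Each probe was fitted with 8 group means (28 residual degrees of freedom), 13 comparisons and 2 added after seeing the data, adjusted by Benjamini and Hochberg over 9545 probes.

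Named members were a panel by role, all paralogs, the largest changes per comparison, the smallest F p-values and the smallest ranges; others given for slide, overlap or disagreement between probes were chosen after their values were seen. Members and lists were chosen with earlier results of these data known. Samples with equal replicate numbers were not treated as pairs, since the correlations of their deviations ran from -0.188 to 0.418 and stayed over 0.1 throughout in 0 of 12 comparisons. Alternatives were other background and scaling methods, the authors' table, other filters, 1 probe per gene, slide or replicate block, smaller fits, no slide 3 and each array left out. The model was tested on simulated data. Figures used Python 3.11.15 and matplotlib 3.10.9. Some members' own results are not reported here; they stay in all counts and medians.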

Additional observations from a re-analysis of the deposited data

Results flagged for a closer look

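Arrays far from the rest of their group were sought in 112 sets of values, by the gap to the nearest array over the group's range. Chance marks about 1 in 20 such sets, and 13 were marked. Rpl13a was highest at 11.70 in the fourth VAD sham vehicle rat and 12.79 in the fifth VAD BDL VITA rat, which also had the highest Rpl22 (13.51). Rps26 was highest at 13.14 in the fourth VAS sham VITA rat and 12.97 in the fifth VAS BDL vehicle rat, which had the lowest Rpl41 (14.24). Rpl29 was highest at 13.69 in the fourth VAS sham vehicle rat. The arrays named so far are all on slide 3. The first VAS sham vehicle rat had the lowest Rpl19 (12.72), and the second had the highest median of all members (12.88). Rpl30 stood at 12.57 in the fourth VAS sham vehicle rat, 9.12 in the first VAS BDL vehicle rat and 12.38 in the first VAD BDL VITA rat. Rpl10l1 was highest at 7.94 in the first VAS BDL VITA rat.

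Effects that differed between the diets by an interaction test were those of ligation in vehicle rats on Rpl19 (0.50) and Rpl3 (0.43). The effect of retinyl palmitate in ligated rats differed for Rps26 (-0.91), Rpl29 (-0.68), Rpl19 (-0.54), Rps4x (-0.53), and for Rpl23a, Rps10 and Rpsa (each -0.50), VAD minus VAS.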

How the results depend on the processing

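Median scaling moved most values: the members passing became 8 for ligation in VAD vehicle rats (median 0.26), 8 for VAD against VAS with BDL, 0 for VITA in VAD BDL rats, 4 and 2 for ligation in VAS and VAD rats on VITA (median 0.061 in VAD), 0 for the diet by ligation interaction, 1 for the VITA by diet interaction and 8 for the F over 8 groups, and the median for VITA in VAD sham rats became 0.045, where all probes had 0.121, so that relative to all probes it stayed at -0.08. The cause was not tested. Under median scaling 16.3% of all probes were higher for ligation in VAS rats on VITA, and 11.6% in VAD rats. The 4 members in VAS rats were 3 higher and 1 lower, and the 2 in VAD rats were higher. The authors' table gave 2 members higher for ligation in VAS vehicle rats, where 9.49% of all probes were. It gave 13 lower for VITA in VAD BDL rats, where 1018 of 9545 probes were. For the diet by ligation interaction it gave 6 higher, where 5.69% of all probes were. Slide as a block gave 22 for VITA in VAD BDL rats, 10 for diet by ligation and 17 for VITA by diet. With replicate number as a block, although the numbers do not pair the samples, 11 passed for VITA in VAD BDL rats. A fit to only the groups compared, with fewer arrays for the error, gave 26 for ligation in VAD vehicle rats, 0 for VITA in VAD BDL rats, 9 and 6 for ligation in VAS and VAD rats on VITA, and 0 for diet by ligation. Without slide 3 there were 2 for ligation in VAS vehicle rats, 29 for VITA in VAD BDL rats, 4 for ligation in VAS rats on VITA and 12 for diet by ligation, with a median of 0.072 for VAD against VAS BDL rats on VITA and -0.38 for VITA by diet.

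With each array left out in turn, the count ran from 34 to 46 for ligation in VAD vehicle rats, 34 to 42 for VAD against VAS with BDL, 4 to 17 for VITA in VAD BDL rats, 8 to 18 for ligation in VAS and 13 to 20 in VAD rats on VITA, 1 to 3 for diet by ligation, 7 to 19 for VITA by diet (19 without the fifth VAD BDL VITA rat) and 37 to 45 for the F. Of 650 values for 65 named pairs of member and comparison under the other settings, 551 stayed past the threshold in the same direction, 99 did not pass (52 of them under median scaling) and 0 turned. With arrays left out, 591 of 691 stayed and 100 did not pass. Shares of all probes are not given for fits with arrays left out, without slide 3 or to only the groups compared. Nor are they for the replicate block, the F under median scaling or VITA by diet with slide as a block. The members' counts in those fits were not set against such shares. The number of arrays and the levels near background of Rps16, Rpl3l, Rpl15, Rpl5 and Rpl10l1 limit what could be detected.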
